A study of Bos taurus with 16 samples.

Results

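The genes described here are S100A8, S100A9, S100A12, CXCR1 and CXCR2, which are used as markers of neutrophils, and the lysozyme gene LYZ2. Of these 6 genes, 5 were found in the files, out of 20629 features in all; no accession in the files matched CXCR2, which was not analysed here. LYZ2 was taken up because its value in treatment against control had stood out in earlier work on these data, and the other genes because of their levels in these libraries. Those values are therefore given as a description. The study sequenced poly(A) RNA from 7 libraries labelled treatment and 9 labelled control, and its title concerns lasting changes in bovine granulosa cells after a uterine disease has resolved. All 16 libraries came from lactating Holstein Bos taurus cows of a cohort of 45, whose ovulation had been synchronised with GnRH and prostaglandin F2α. Granulosa cells, the somatic cells that line the ovarian follicle, were pelleted from the needle aspirate of the dominant follicle 63 ± 3 days after calving. The labels do not say what treatment stands for, the tissue field of every library reads blood, and no library is tied to a named cow, so a p-value here covers only how far these libraries spread, which may be technical. The follicle was flushed with medium and the pelleted cells were washed, and the labels describe no sort of the cells.

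S100A8 and S100A9 are small calcium-binding proteins that pair as calprotectin, an abundant protein of the neutrophil cytoplasm that binds metal ions and restrains bacterial growth. S100A12 is a related alarm signal, and all 3 S100 genes are also active in monocytes and in stressed squamous epithelium. CXCR1 and CXCR2 are the receptors through which neutrophils follow CXCL8 and related chemokines. Lysozyme cleaves bacterial cell walls. In humans a single LYZ gene serves granulocytes, monocytes and macrophages, whereas in cattle the gene was duplicated and several copies came to be used as digestive enzymes in the stomach. In RefSeq's ARS-UCD2.0 gene table, used for names and order only, S100A8, S100A12 and S100A9 are direct neighbours, CXCR2 lies next to CXCR1, and LYSB, LYZ2, LOC781349, LYZ3, LOC787241 and LYZ follow each other.

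The libraries were of 2 kinds, told apart by INHA, the inhibin alpha subunit made by granulosa cells. INHA was above 1000 CPM (counts scaled to 1000000 transcript counts of the library) in 9 libraries, called granulosa-rich, and under 200 CPM in 7, called leukocyte-rich. The granulosa-rich libraries were treatment replicates 4, 5, 6 and 7 and control replicates 2, 3, 4, 7 and 8. The leukocyte-rich libraries were treatment replicates 1, 2 and 3 and control replicates 1, 5, 6 and 9. CD14, a coreceptor for lipopolysaccharide on monocytes and macrophages, ran from 5.32 to 332 CPM in the granulosa-rich libraries and from 1859 to 4031 CPM in the leukocyte-rich ones. The 2 kinds are not groups of the study, and no test was made between them. The libraries held 8111862 to 14348753 counts, so that a count of 0 allows up to 0.212 to 0.375 CPM, counting error only.

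S100A8, which binds calcium and metal ions as part of calprotectin, ran from 0 to 171 CPM in granulosa-rich and from 0 to 736 CPM in leukocyte-rich libraries. In granulosa-rich libraries it was at 0, 0.407, 52.5 and 171 CPM in treatment replicates 4, 5, 6 and 7, and at 1.75, 86.7, 29.2, 3.65 and 53.8 CPM in control replicates 2, 3, 4, 7 and 8. In leukocyte-rich libraries it was at 26.8, 40.1 and 736 CPM in treatment replicates 1, 2 and 3, and at 17.1, 162, 57.0 and 0 CPM in control replicates 1, 5, 6 and 9. Treatment replicate 3 stood 4.31 times above the next library, treatment replicate 7, and held 51.2% of the summed CPM of the 16 libraries. The 0 counts of treatment replicate 4 and control replicate 9 allow up to 0.330 and 0.375 CPM, and CD14 was at 332 and 2365 CPM in the same libraries. The kinds overlapped almost entirely, with medians of 29.2 CPM in granulosa-rich and 40.1 CPM in leukocyte-rich libraries. In bulk RNA, fewer cells of a type and less RNA per cell cannot be told apart.

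S100A9, the partner of S100A8 in calprotectin, was low throughout. It was at 0, 0.508, 4.05 and 3.07 CPM in granulosa-rich treatment replicates 4, 5, 6 and 7, against 0, 4.52, 0.637, 0.0811 and 0.108 CPM in granulosa-rich control replicates 2, 3, 4, 7 and 8. In leukocyte-rich libraries it was at 2.00, 0.246 and 12.8 CPM in treatment replicates 1, 2 and 3, and at 6.34, 9.34, 2.26 and 0.125 CPM in control replicates 1, 5, 6 and 9. Its 537 counts over all 16 libraries were spread over 4 accessions, of which the curated record held 5. How reads were divided between these records is not given in the sources used here. The 2 partners did not keep a fixed ratio. Per 1000 S100A8 counts, S100A9 had 371 counts in control replicate 1, 17.4 in treatment replicate 3, 6.12 in treatment replicate 2 and 2.00 in control replicate 8.

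S100A12, the alarm signal beside them, had its highest value in the same library as S100A8 and S100A9. It was at 0.220, 0.305, 5.14 and 2.91 CPM in granulosa-rich treatment replicates 4, 5, 6 and 7, against 0.0793, 13.2, 1.34, 0.405 and 8.20 CPM in granulosa-rich control replicates 2, 3, 4, 7 and 8. It was at 3.78, 1.15 and 44.0 CPM in leukocyte-rich treatment replicates 1, 2 and 3, against 2.43, 31.6, 7.67 and 0.750 CPM in leukocyte-rich control replicates 1, 5, 6 and 9. Treatment replicate 3 and control replicate 5 were the highest libraries for both S100A9 and S100A12, and control replicate 9, with CD14 at 2365 CPM, was the lowest leukocyte-rich library for both. Per 1000 S100A8 counts, S100A12 had between 17.0 counts in treatment replicate 7 and 195 counts in control replicate 5 wherever S100A8 exceeded 4 counts.

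CXCR1, the chemokine receptor among these genes, was close to the limit of detection. It was at 0, 0, 1.48 and 0.708 CPM in granulosa-rich treatment replicates 4, 5, 6 and 7, against 0, 6.09, 0.849, 0 and 0.108 CPM in granulosa-rich control replicates 2, 3, 4, 7 and 8. In leukocyte-rich libraries it was at 1.67, 0.328 and 0.338 CPM in treatment replicates 1, 2 and 3, and at 0.295, 1.98, 2.58 and 0 CPM in control replicates 1, 5, 6 and 9. The highest value, in the granulosa-rich control replicate 3, rested on 66 counts (95% Clopper-Pearson interval 4.71 to 7.75 CPM, counting error only). Treatment replicate 3, the highest library for the 3 S100 genes, had 4 CXCR1 counts (0.0920 to 0.864 CPM). The library with the most S100A8 was thus not the one with the most CXCR1.

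**Figure D1:**
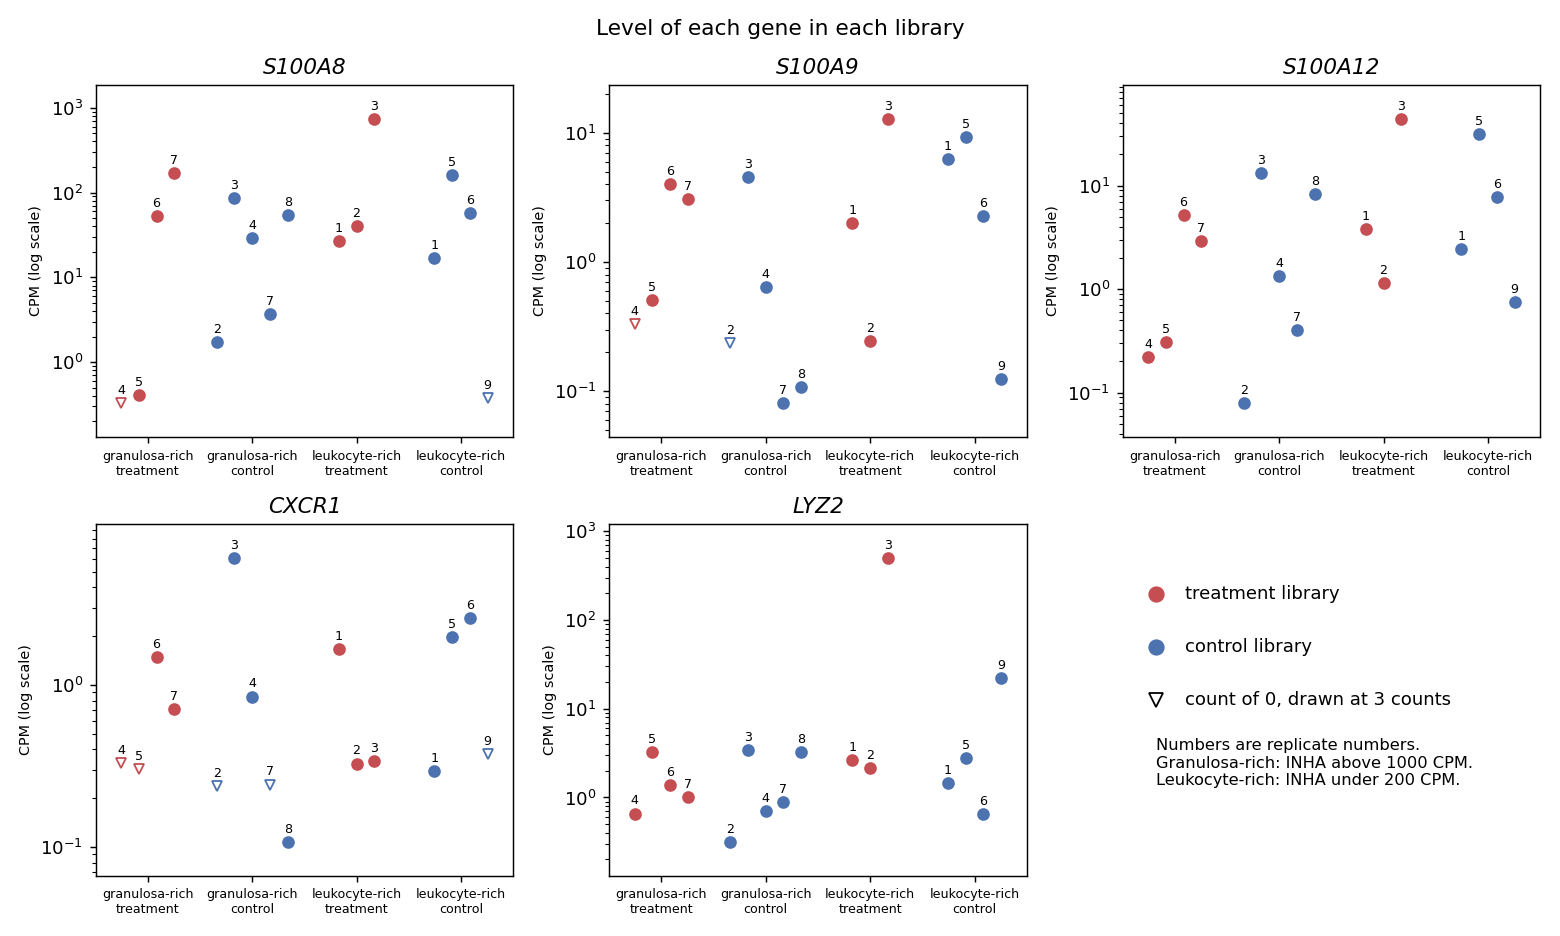
Level of S100A8, S100A9, S100A12, CXCR1 and LYZ2 in CPM (log axis) in each of the 16 libraries, split by library kind and group; each point is 1 library with its replicate number, red for treatment and blue for control, and open triangles mark a count of 0 drawn at 3 counts. Treatment replicate 3 is the highest point for S100A8 (736 CPM), S100A9 (12.8 CPM), S100A12 (44.0 CPM) and LYZ2 (504 CPM), but not for CXCR1, where control replicate 3 is highest (6.09 CPM).

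Set against CD14, the S100 genes and CXCR1 took a different order from that of their CPM. Per 1000 CD14 counts, the median count of S100A8 was 392 in the 9 granulosa-rich and 14.4 in the 7 leukocyte-rich libraries, 27.2 times higher in the granulosa-rich ones. The medians were 54.1 and 1.90 for S100A12, 6.31 and 1.08 for S100A9, and 1.83 and 0.161 for CXCR1 in granulosa-rich and leukocyte-rich libraries. The CXCR1 median of 1.83 was the value of control replicate 8, which had 1 CXCR1 count (interval 0.0461 to 10.2). The CXCR1 fold over all libraries thus rested on that count. Of the 9 granulosa-rich libraries, 6 lay above every leukocyte-rich library for S100A8, 7 for S100A12, 5 for S100A9 and 5 for CXCR1. Some of these rested on few counts, and their intervals reached below the highest leukocyte-rich library. These were control replicates 2 and 7 for S100A12 (1 and 5 counts), treatment replicate 5 for S100A9 (5 counts) and control replicate 8 for CXCR1. The share of all features lying above in this way was not counted, so the counts are not particular to these genes. Control replicate 4 had 3278 S100A8 counts per 1000 CD14 counts (2679 to 4034), and treatment replicate 7 had 3175. Not above every leukocyte-rich library were, for S100A8, treatment replicates 4 and 5 (0 and 5.05) and control replicate 7 (132). For S100A12 these were treatment replicates 4 and 5 (0.662 and 3.79). For S100A9 they were treatment replicate 4 (0) and control replicates 2, 7 and 8 (0, 2.94 and 1.83), and for CXCR1 treatment replicates 4 and 5 and control replicates 2 and 7, all at 0. The folds rested in part on single libraries, an alternative chosen after seeing the data. Without any 1 library the fold for CXCR1 ranged from 5.28 (without treatment replicate 3, or control replicate 1 or 9) to 46.7 (without treatment replicate 4 or 5, or control replicate 2 or 7). It ranged from 3.91 (without treatment replicate 2, or control replicate 6 or 9) to 12.4 (without treatment replicate 4, or control replicate 2, 7 or 8) for S100A9. It ranged from 23.0 to 45.2 for S100A8, highest without treatment replicate 4 or 5 or control replicate 2 or 7, and from 18.1 to 39.6 for S100A12, lowest without treatment replicate 6 or control replicate 3, 4 or 8.

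CD14 itself was far lower in the granulosa-rich libraries, with a median of 53.8 CPM against 2940 CPM in leukocyte-rich ones. A gene that is lower there by a smaller factor than CD14 therefore rises in this ratio. The fold depended on the gene set as denominator. With CSF1R, the macrophage growth factor receptor, in its place, the fold between the medians of granulosa-rich and leukocyte-rich libraries was 16.5 for S100A8, 17.6 for S100A12, 5.53 for S100A9 and 13.4 for CXCR1. With PTPRC (CD45), which all leukocytes carry, it was 1.75, 2.93, 0.976 and 0.758 for the same genes. Per PTPRC count the medians of S100A9 and CXCR1 were thus below those of leukocyte-rich libraries. With both denominators the CXCR1 median of granulosa-rich libraries was again that of control replicate 8, with its 1 count.

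**Figure D2:**
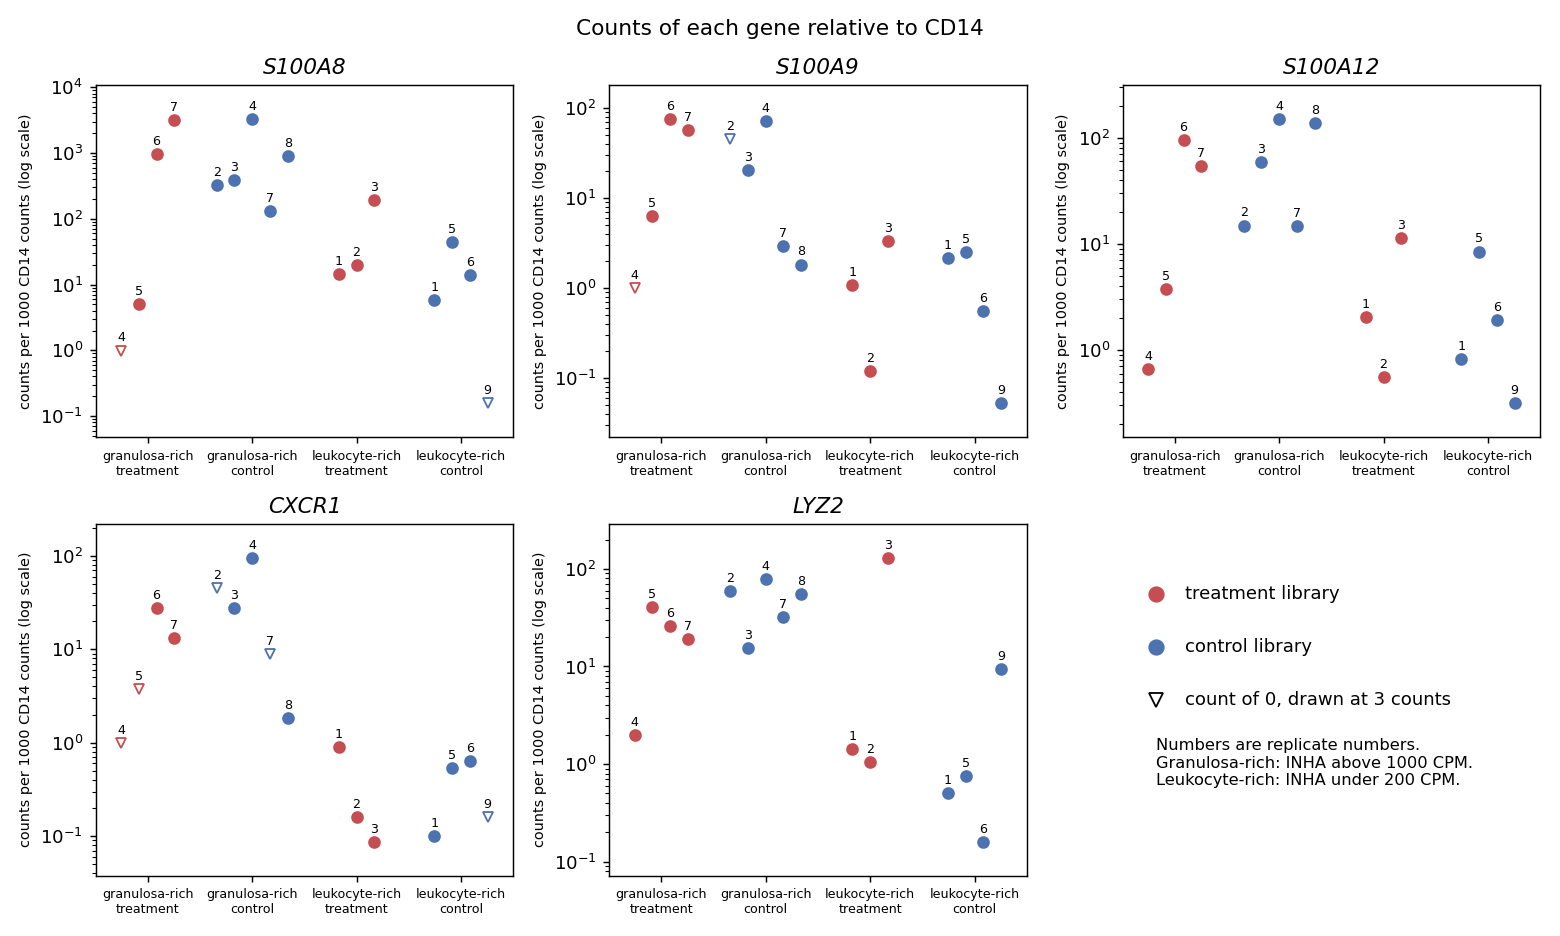
Counts of each gene per 1000 CD14 counts (log axis) by library kind and group; each point is 1 library with its replicate number, red for treatment and blue for control, and open triangles mark a count of 0 drawn at 3 counts. Above every leukocyte-rich point lie 6 of the 9 granulosa-rich points for S100A8, 7 for S100A12, 5 for S100A9 and 5 for CXCR1, while for LYZ2 treatment replicate 3 is the highest point (130 per 1000). Some of these points rest on few counts, such as 1 for S100A12 in control replicate 2 and 1 for CXCR1 in control replicate 8.

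LYZ2 was near the bottom of the scale in all but 2 libraries. In granulosa-rich libraries it was at 0.659, 3.25, 1.38 and 1.02 CPM in treatment replicates 4, 5, 6 and 7, against 0.317, 3.42, 0.707, 0.892 and 3.24 CPM in control replicates 2, 3, 4, 7 and 8. In leukocyte-rich libraries it was at 2.67, 2.13 and 504 CPM in treatment replicates 1, 2 and 3, against 1.47, 2.78, 0.646 and 22.2 CPM in control replicates 1, 5, 6 and 9. Treatment replicate 3, with 5972 counts, stood 22.7 times above control replicate 9, with 178 counts. Per 1000 CD14 counts, treatment replicate 3 had 130 LYZ2 counts, control replicate 9 had 9.40, and the other 5 leukocyte-rich libraries had 0.160 to 1.44. The granulosa-rich libraries had 1.99 to 79.4 LYZ2 counts per 1000 CD14 counts, on 4 to 37 LYZ2 counts each.

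LYZ and LYSB did not fully share this pattern, whereas LOC781349, the gene between LYZ2 and LYZ3 described below, also stood out in treatment replicate 3. LYZ, the lysozyme copy with the most counts here, was high in the same 2 libraries, but at about the same level, with 3133 CPM in treatment replicate 3 and 3259 CPM in control replicate 9. It was at 270.9 and 22.9 CPM in leukocyte-rich treatment replicates 1 and 2, against 50.6, 431 and 47.5 CPM in leukocyte-rich control replicates 1, 5 and 6. Per 1000 LYZ counts, LYZ2 had 161 counts in treatment replicate 3 (95% interval 156 to 165) and 6.82 in control replicate 9 (5.86 to 7.91). The remaining 14 libraries lay between 5.18 in treatment replicate 6 and 133 in treatment replicate 5, where LYZ2 had 32 counts.

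LYSB, another lysozyme copy next to LYZ2, had yet another order. It was at 25.6, 107 and 0 CPM in leukocyte-rich treatment replicates 1, 2 and 3, against 0.442, 4.04, 0 and 1.87 CPM in leukocyte-rich control replicates 1, 5, 6 and 9. In treatment replicate 2 it had 4646 counts per 1000 LYZ counts. LOC781349, the protein-coding gene between LYZ2 and LYZ3, for which the gene table gives no name, was at 34.4 CPM in treatment replicate 3 and at most 1.20 CPM in the other 15 libraries; it was looked up after the LYZ2 values had been seen. LYZ3 was at most 1.40 CPM. Reads that fit several copies of such a family cannot be placed with certainty, and how the authors placed them is not given in the sources used here. The division between the copies is therefore uncertain. LYZ2 and LYZ did not keep a fixed ratio across libraries, and the part of misplaced reads in this was not tested.

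**Figure D3:**
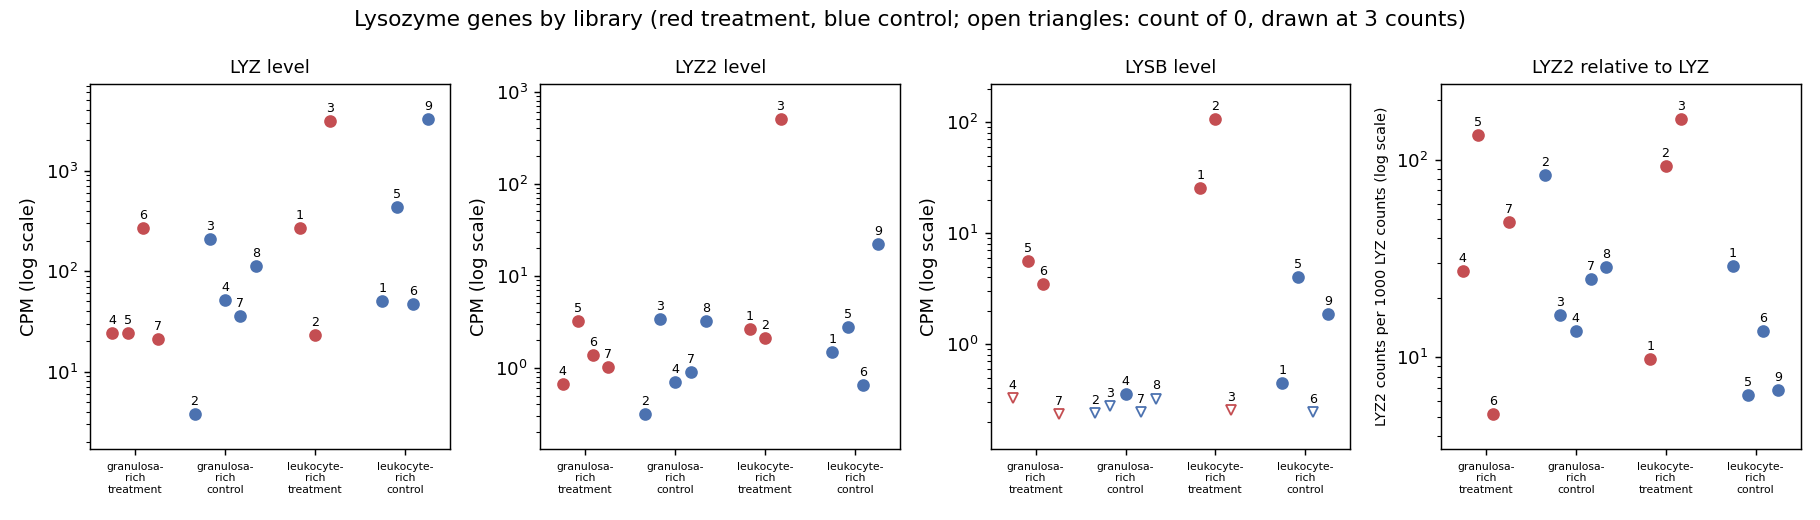
The first 3 panels plot LYZ, LYZ2 and LYSB in CPM (log axes) and the last plots LYZ2 counts per 1000 LYZ counts, by library kind and group; each point is 1 library with its replicate number, red for treatment and blue for control, and open triangles mark a count of 0. LYZ is alike in treatment replicate 3 (3133 CPM) and control replicate 9 (3259 CPM), whereas LYZ2 is at 504 and 22.2 CPM there and LYSB peaks in treatment replicate 2 (107 CPM).

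Treatment was then compared with control over the 16 libraries. S100A8 had a median of 40.1 CPM (0 to 736) in treatment and 29.2 CPM (0 to 162) in control, and the log2 fold change from the fit was 1.72 ± 1.31 (SE). S100A9 had a median of 2.00 CPM (0 to 12.8) in treatment and 0.637 CPM (0 to 9.34) in control, with a fitted change of 0.37 ± 1.11. S100A12 had a median of 2.91 CPM (0.220 to 44.0) in treatment and 2.43 CPM (0.0793 to 31.6) in control, with a fitted change of 0.23 ± 1.09. The groups overlapped for each of these genes, and none passed (edgeR's quasi-likelihood test, Benjamini-Hochberg adjusted p = 0.9999 for each). Of the 9653 features tested, 0 passed an adjusted p of 0.05, which is 0%. An unadjusted p under 0.05 was found for 163 by edgeR, 301 by DESeq2 and 88 by limma-voom, and the last 2 tools also called 0 features. CXCR1 was too low for the test; without the filter on low counts its fitted change was -1.06 ± 1.11 (SE), with a median of 0.338 CPM in treatment and 0.295 CPM in control.

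LYZ2, chosen on this contrast and so given with no test, had a log2 fold change of 4.31 ± 1.46 (SE) in the same fit, with a median of 2.13 CPM (0.659 to 504) in treatment and 1.47 CPM (0.317 to 22.2) in control. Its mean log2(CPM + 1) was 2.51 ± 2.89 (SD, n = 7) in treatment and 1.64 ± 1.26 (SD, n = 9) in control. Without treatment replicate 3 the fitted change of LYZ2 was -0.99, that of S100A12 -1.70, that of S100A9 -0.65 and that of S100A8 0.10. A single library thus set the size of each of these values and the sign of the first 3. DESeq2, which replaces counts it takes for outliers, gave 0.14 ± 0.49 for LYZ2. LYZ2 was at 1.07 with limma-voom, 1.20 with the replicate number as a block, 2.35 with library kind as a covariate and 2.11 with CD14 as a covariate. S100A8 was at 0.25 with limma-voom and 0.79 with the block. Within the granulosa-rich libraries alone LYZ2 was at -0.09 ± 0.81, S100A8 at 0.63 ± 1.55 and S100A12 at -1.15 ± 1.26. Within the leukocyte-rich libraries alone the same genes were at 4.80 ± 2.12, 2.26 ± 1.75 and 0.69 ± 1.47. Whether the change differs between the kinds was not tested.

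**Figure D4:**
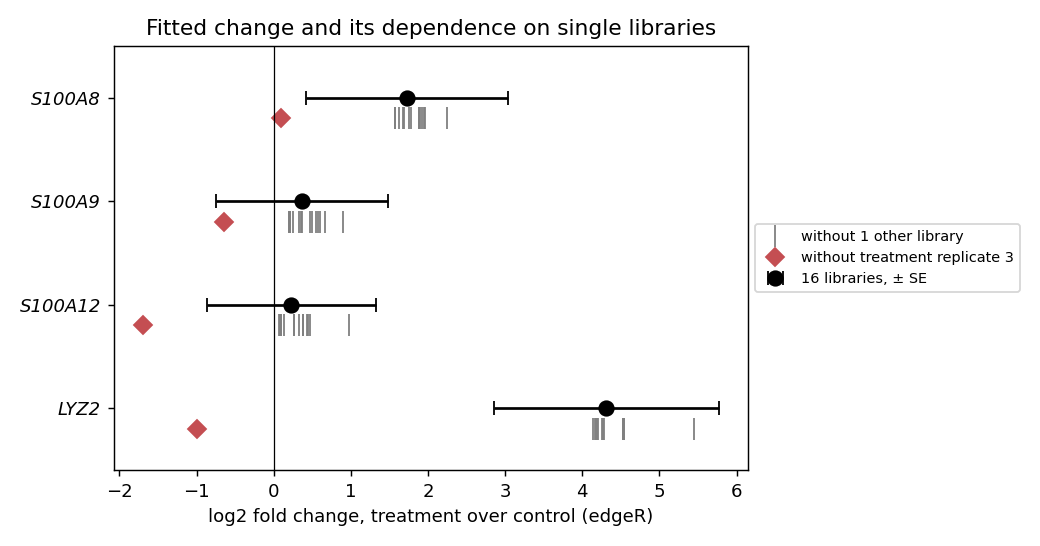
Fitted log2 fold change, treatment over control, of S100A8, S100A9, S100A12 and LYZ2; black points with bars are the fit over 16 libraries with its SE, grey ticks the fits that leave out a single other library, and red diamonds the fit without treatment replicate 3. Leaving out treatment replicate 3 moves LYZ2 to -0.99, whereas leaving out any other library leaves it between 4.14 and 5.45.

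The wider set of neutrophil genes was then read. Of 23 neutrophil granule genes listed, 13 were in the files and 3 passed the filter on low counts. MPO (myeloperoxidase) and ELANE (neutrophil elastase), stored in primary granules and transcribed mainly in marrow precursors, were at most 0.793 and 2.86 CPM. LTF, lactoferrin of the secondary granules, had a single count in the 16 libraries. Of the cathelicidins, antimicrobial peptides of bovine neutrophil granules, 3 had counts above 10 in control replicate 1, with 52 counts of CATHL4, 32 of CATHL2 and 16 of CAMP, and these were at 0 in the other 15 libraries. CATHL5 was at 0 in control replicate 1 and had 14 counts over 5 other libraries, at most 0.324 CPM. PGLYRP1, a peptidoglycan recognition protein of granules, was also highest there, at 4.35 CPM. S100A8 was at 17.1 CPM in that library, the lowest of the leukocyte-rich libraries but for control replicate 9.

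The 3 granule genes that passed the filter were MMP9, CHI3L1 and BPI, and MMP9 and CHI3L1 are also active in macrophages. MMP9, the gelatinase of tertiary granules, was at 1377, 1239 and 118 CPM in leukocyte-rich treatment replicates 1, 2 and 3, against 39.8, 368, 3785 and 10.5 CPM in leukocyte-rich control replicates 1, 5, 6 and 9. It was at most 3.36 CPM in the granulosa-rich libraries. CHI3L1, a chitinase-like lectin, was at 1.02 to 46.6 CPM in granulosa-rich and 215 to 1398 CPM in leukocyte-rich libraries. BPI, which binds lipopolysaccharide, was highest in treatment replicate 2 (109 CPM). It overlapped between the kinds, at 0.283 to 29.2 CPM in granulosa-rich and 2.51 to 109 CPM in leukocyte-rich libraries. Of the 3, BPI and CHI3L1 had fitted changes above 0 in treatment (2.14 ± 0.96 and 0.01 ± 1.38, SE) and MMP9 one below 0 (-0.34 ± 1.97), beside 52.1% of all features above 0, and 0 passed the test.

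Of 18 other surface and signalling genes, 14 were in the files and 12 were tested. In treatment against control 7 had fitted values above 0 and 5 below, with a median log2 fold change of 0.41, and 0 passed. Over all 9653 features the median was 0.01, and 52.1% were above 0. Without treatment replicate 3 only 1 was above 0 and 11 were below (median -0.36), beside 48.9% of all features above 0. In that fit 0 of 10 monocyte and macrophage markers and 0 of 7 pan-leukocyte markers were above 0, so the shift was not particular to neutrophil genes. ITGAM (CD11b), the adhesion integrin of phagocytes, lay between 0.555 and 140 CPM in granulosa-rich and between 403 and 1189 CPM in leukocyte-rich libraries. CYBB, the catalytic subunit of the phagocyte oxidase, was highest in treatment replicate 3 (4549 CPM), as was ALOX5AP, needed for leukotriene synthesis (342 CPM). TREM1, an amplifier of inflammation on myeloid cells, was at 91.5 CPM in treatment replicate 3, the lowest of the leukocyte-rich libraries. TNFAIP6, listed as a gene of activated neutrophils but also made by granulosa cells after the ovulatory signal, went the other way, with 64.4 to 25541 CPM in granulosa-rich and 0.590 to 20.2 CPM in leukocyte-rich libraries. VNN2, from the same list, was at 1.42 to 410 CPM in granulosa-rich and 9.95 to 102 CPM in leukocyte-rich libraries. Its highest granulosa-rich values were 410, 55.8 and 29.6 CPM in control replicates 3, 8 and 4, and 87.7 and 150 CPM in treatment replicates 6 and 7. These are also the granulosa-rich libraries with the most S100A8.

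**Figure D5:**
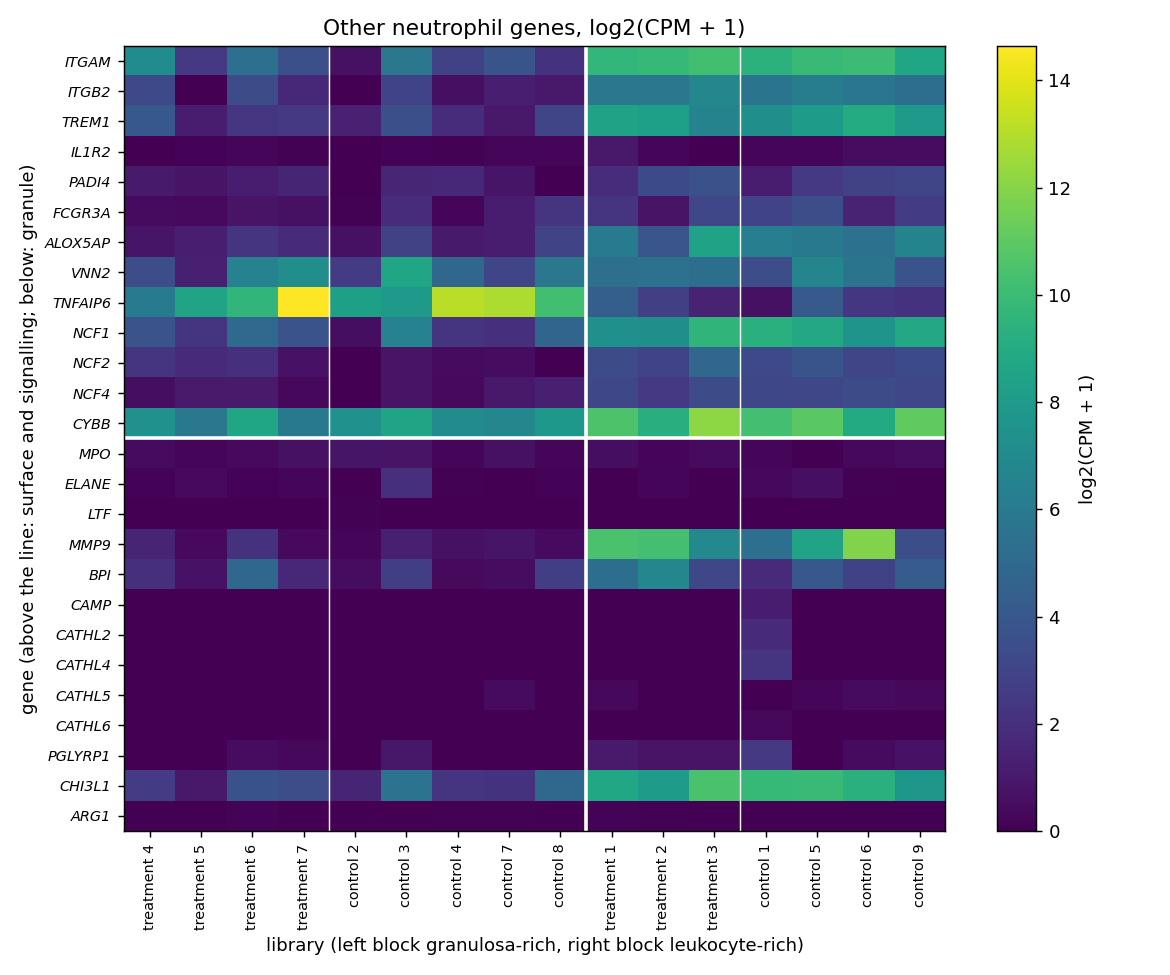
Heat map of log2(CPM + 1) of further neutrophil genes (surface and signalling genes above the line, granule genes below) in the 16 libraries, granulosa-rich on the left and leukocyte-rich on the right, treatment before control within each. MPO, ELANE, LTF and the cathelicidins are dark in nearly every library, with CATHL2 and CATHL4 visible in control replicate 1, while ITGAM, NCF1, CYBB and CHI3L1 are brighter in each of the 7 leukocyte-rich libraries than in any granulosa-rich one.

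The chemokines that CXCR1 and CXCR2 bind were read next. Of 8 ligands listed, 5 were in the files. All 5 had fitted values above 0 in treatment (median log2 fold change 1.47), beside 52.1% of all features tested, and 0 passed. Without treatment replicate 3 this held for 4 of 5 (median 0.40), beside 48.9% of all features. Within the leukocyte-rich libraries alone all 5 were above 0 (median 1.57), beside 51.1% of features. Within the granulosa-rich libraries alone 1 was above 0 and 4 were below (median -0.43), beside 52.9% of features above 0. CXCL8, the main neutrophil attractant, was at 137, 1908 and 2753 CPM in leukocyte-rich treatment replicates 1, 2 and 3, against 402, 434, 1463 and 136 CPM in leukocyte-rich control replicates 1, 5, 6 and 9. CXCL5 was at 1210, 2296 and 4411 CPM in the same treatment libraries and 628, 2510, 4440 and 37.4 CPM in the same control libraries. In control replicate 9, where CXCL5 was lowest among these 7, S100A8 and CXCR1 were at 0. In granulosa-rich libraries CXCL8 lay between 0.162 and 237.5 CPM, the highest in control replicate 3, which also had the highest CXCR1. Treatment replicates 3 and 2, with the most CXCL8 of all libraries, had CXCR1 at only 0.338 and 0.328 CPM. Control replicate 6, next in CXCL8, had CXCR1 at 2.58 CPM, and treatment replicate 1, with 137 CPM of CXCL8, at 1.67 CPM. A link between these ligands and CXCR1 was not tested.

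Among the receptors of S100 proteins, TLR4 was at 54.8 CPM in treatment replicate 3 and at most 34.6 CPM in the other libraries, LY96, its coreceptor, was at most 74.0 CPM, and AGER had 6 counts over all libraries. Of 18 symbols that start with S100, 12 were tested, and 0 passed. Fitted values were above 0 in treatment for 6 and below for 6 (median -0.10), or for 2 and 10 without treatment replicate 3 (median -0.36). Of all features, 52.1% were above 0, or 48.9% without that library. S100A11, which many cell types use, lay between 1452 and 2002 CPM in the leukocyte-rich libraries, while S100A8 ran from 0 to 736 CPM there, and S100A4 lay between 389 and 1158 CPM. S100A2, an epithelial member, was highest in control replicate 3 (512 CPM). CEBPE, the transcription factor of late granulocyte maturation, was at 35.6 CPM in treatment replicate 3 and at most 19.6 CPM elsewhere. Of 6 granulocyte transcription factors in the files, 5 were tested, 2 with fitted values above 0 in treatment and 3 below (median -0.36), or 0 and 5 without treatment replicate 3 (median -1.34), and 0 passed. Without that library 0 of 10 monocyte and macrophage markers and 0 of 7 pan-leukocyte markers were above 0 as well.

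Markers of other cell types moved with some of these values. The summed CPM of 6 squamous epithelium markers was 0.659 to 107 in granulosa-rich treatment, 4.22 to 233 in granulosa-rich control, 1.00 to 19.2 in leukocyte-rich treatment and 1.05 to 8.44 in leukocyte-rich control libraries. It was highest in control replicate 3 (233), treatment replicate 7 (107), control replicate 8 (67.4) and control replicate 4 (67.1), which are, with treatment replicate 6 (0.692), the 5 granulosa-rich libraries with the most S100A8. The sum of 5 simple epithelium markers was 4.29 to 652, 7.38 to 2006, 56.5 to 1834 and 6.46 to 482 CPM in the same 4 sets. Among granulosa-rich libraries it was highest in the same 5, with 652 and 634 CPM in treatment replicates 6 and 7 and 2006, 136 and 406 CPM in control replicates 3, 4 and 8, and at most 25.0 CPM in the others. The sum of 4 B cell markers was 18.2 to 396, 5.08 to 2710, 38.5 to 91.5 and 26.2 to 385 CPM in the 4 sets. It too was highest in those 5 granulosa-rich libraries, with 396 and 101.5 CPM in treatment replicates 6 and 7 and 2710, 60.5 and 220.0 CPM in control replicates 3, 4 and 8, and at most 30.0 CPM in the others. JCHAIN alone made up 2418 of the 2710 CPM in control replicate 3. Sums of T and NK cell and of pan-leukocyte markers followed this order in part. Among granulosa-rich libraries both were highest in control replicate 3 (183.5 and 907.8 CPM) and treatment replicate 6 (142.9 and 774.2 CPM), and treatment replicate 7 had 108.5 and 432.4 CPM. The same sums were 71.1 and 763.5 CPM in treatment replicate 4, where S100A8 was at 0, above control replicate 8 (55.89 and 326.9) and control replicate 4 (18.25 and 158.3). The part of epithelial cells, B cells and other leukocytes in the S100 values was not tested. In treatment replicate 3, squamous markers summed to 12.5 CPM and simple epithelium markers to 56.5 CPM.

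The sum of 11 monocyte and macrophage markers was 365 to 1877 CPM in granulosa-rich treatment, 23.3 to 742 in granulosa-rich control, 6929 to 14514 in leukocyte-rich treatment and 8287 to 11556 in leukocyte-rich control libraries, with treatment replicate 3 highest (14514). SELP, a selectin stored by platelets and endothelial cells, was at 354 CPM in treatment replicate 3 and at most 3.51 CPM elsewhere, and VWF, a clotting protein of the same cells, at 164 CPM and at most 36.7 CPM. Among the other endothelium markers, PECAM1 was also highest in treatment replicate 3, at 6.83 CPM. CDH5 was at 0 there and highest in treatment replicate 2 (7.29 CPM). The sum of 3 platelet markers was 1.02 to 8.01, 1.75 to 19.1, 233 to 2106 and 28.5 to 1489 CPM in those 4 sets, and ITGA2B, which defines platelets, was at most 0.147 CPM. PF4 alone made up 1486 of the 1489 CPM in control replicate 6 and 1752 of the 2106 CPM in treatment replicate 3. Haemoglobin HBB, a sign of blood in the aspirate, was at 0.422 CPM in treatment replicate 3 and at most 42.7 CPM in any library. The part of these cells in the LYZ2 and S100 values was not tested.

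Genes were ranked by likeness to each of the 4 tested genes, as the root mean square difference of log2 CPM over the 16 libraries after centring each gene on its mean, among 8026 other genes with a symbol. S100A8 was most like S100A12 (2.22 log2 units, against a median of 3.745 over all genes), LAP, a bovine beta-defensin (2.27), and TCN1, a vitamin B12 binder of neutrophil granules (2.30). S100A9 was most like the adenosine receptor ADORA2B (1.15), S100A12 (1.42) and JAML, an adhesion molecule of neutrophils (1.44), against a median of 2.44. S100A12 was most like MYBPH (1.11), CD300LB (1.26) and CD69 (1.26), against a median of 2.35. LYZ2 was most like TWIST1 (1.42), FOLH1 (1.45) and LYZ (1.53), against a median of 2.49. In the 7 leukocyte-rich libraries alone the nearest gene was CXCL5 for S100A8 (1.73), LOC508666 for S100A9 (0.65), CD300LB for S100A12 (0.59) and MEDAG for LYZ2 (1.20).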

How the data were processed

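The authors deposited 1 table per library with whole-number counts per RefSeq accession, not normalized. The tools named are Bowtie2, cutadapt and SAMtools, per the submitters' processing notes; their versions and order, the build and the handling of multi-mapping reads were not given in the sources used here. Per the labels' protocols the library kit does not mark strand, so reads of antisense genes cannot be told apart. The 133 genomic accessions, 0.712 to 1.92% of a library's counts, were left out. Of 27173 transcript accessions 18973 matched a symbol of the RefSeq table (ARS-UCD2.0), versions ignored, and counts were summed per gene. No sequences or coordinates were used. CPM is relative to the transcript total of a library.

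The comparison used edgeR 4.0.16 (R 4.3.3): TMM scaling, filter on low counts by group, robust quasi-likelihood fit, no covariate, Benjamini-Hochberg adjustment over 9653 features, threshold 0.05; the SE is the log2 fold change over the square root of F. It was checked on simulated counts. Intervals are 95% Clopper-Pearson. Alternatives included DESeq2 1.42.0 and limma-voom (limma 3.58.1). The genes, lists and rules were chosen with earlier results of these data known. The genes named are the members, INHA, CD14, list genes reaching 10 CPM in any library, and the 5 genes most alike to each member; CSF1R and PTPRC served as other denominators. All other genes named, in the closing section too, were chosen after their values were seen. The values of 1 listed surface gene are not reported here.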

Additional observations from a re-analysis of the deposited data

Results flagged for a closer look

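In 10 groups of libraries checked (5 genes, treatment and control), 2 held a library far from the others by Dixon's ratio at its 95% critical value (chance flags about 1 in 20 groups). Both were LYZ2, a gene taken up because its value in treatment against control had stood out, so the chance rate does not apply to them and the gaps are a description. LYZ2 in treatment replicate 3, at 8.98 on the log2(CPM + 1) scale, stood apart from the next treatment library at 2.09, a gap of 0.835 of the group's range over 7 libraries. LYZ2 in control replicate 9, at 4.54, stood apart from the next control library at 2.14, a gap of 0.579 of the range over 9 libraries. Both are leukocyte-rich and are the 2 libraries with the most LYZ.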

How the results depend on the processing

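In treatment against control, the count of called features was 0 under all 12 other settings and without each of the 16 libraries, with 51 to 1180 features at an unadjusted p under 0.05. Whether the replicate numbers pair the libraries could not be told. Same-numbered treatment and control libraries had correlations of their deviations from the group means from -0.60 to 0.60, and 0 of 7 treatment libraries was closest to its own number. The correlation was above 0 for replicates 1, 4 and 7, whose libraries are of the same kind. It was below 0 for replicates 2, 3, 5 and 6, whose libraries differ in kind. The check thus followed library kind and cannot show whether the numbers pair the libraries. With the replicate number as a block 0 features were called, 51 had an unadjusted p under 0.05, and S100A9 was at -0.022. S100A12 changed sign with limma-voom (-0.22), with library kind as a covariate (-0.27), with CD14 as a covariate (-0.26) and in granulosa-rich libraries alone (-1.15), where LYZ2 was at -0.094; the cause was not tested. Over the 16 fits that leave out a single library, log2 fold changes ranged from 0.10 to 2.25 for S100A8, -0.65 to 0.89 for S100A9, -1.70 to 0.98 for S100A12 and -0.99 to 5.45 for LYZ2, each lowest without treatment replicate 3. With at least 10 counts in every library none of these genes could be fitted. CXCR1 was -1.06 with no filter and -0.72 in leukocyte-rich libraries alone. Values of a few counts, CXCR1 above all, are limited by depth.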

Other observations

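Features that stood out in a single library were counted, with limits chosen after the data were seen: at least 50 CPM in that library and at least 10 times the highest of the other 15. Treatment replicate 3 had 5 such features of 2794 at or above 50 CPM, namely LYZ2, HP (376 CPM, at most 20.6 elsewhere), SELP, TWIST1 (138 CPM, at most 7.99 elsewhere) and SLC28A3 (107 CPM, at most 7.76 elsewhere). HP is haptoglobin, an acute phase protein that neutrophils also store. Treatment replicate 7 had 11 such features, control replicate 8 had 7, control replicate 3 had 6, control replicate 9 had 3 and the other 11 libraries had 0.

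In control replicate 9 the features were FABP4 (727.5 CPM), a lipid carrier of macrophages, and the interferon-induced chemokines CXCL9 (224 CPM) and CXCL11 (65.3 CPM), each at most 72.2, 21.8 and 6.45 CPM elsewhere. That library had 0 counts of S100A8 and CXCR1, LYZ at 3259 CPM and LYZ2 at 22.2 CPM. In control replicate 3, which had the most CXCR1, they included JCHAIN (2418 CPM), the joining chain of secreted antibodies, and LBP (66.7 CPM), the lipopolysaccharide-binding protein.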
